A study of Mus musculus with 10 samples.

Results

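Genes of megakaryocytes and platelets were examined in bone marrow (BM) rebuilt from transplanted hematopoietic stem cells (HSCs) of fetal liver, the cells from which all blood cells derive. The list holds 10 genes, Vwf, Itga2b, Itgb3, Gp1ba, Gp1bb, Gp9, Gp5, Gp6, Pf4 and Ppbp, out of 19938 genes with a probe set of their own on the array. Of the 10 genes, 7 had a probe set that lists no other gene, and the one with the highest mean was used for each. Gp1bb was present only on a probe set shared with its neighbor Septin5, and Gp1ba and Gp6 were on no listed probe set and are not analysed here.

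Total RNA of 10 BM samples was measured on 1 array each, with 5 arrays per group, VD(+) and VD(-). VD(+) recipients carried HSCs of embryos whose dams were fed a vitamin D-sufficient diet, and VD(-) recipients carried HSCs of embryos whose dams were fed a vitamin D-deficient diet. Per the methods all recipients were vitamin D sufficient and were lethally irradiated before the transplant, the donor cells were mixed from male and female embryos, and the recipients were of both sexes. The labels give the strain C57BL6 and mice aged 8 weeks for both groups, and the sources differ on the time between transplant and collection. Each group held 3 single samples and 2 pools, and the sources do not say whether the pools contain RNA of the single mice, and the p-values therefore speak only of the spread among arrays, which may be technical. Donor and host cells were not separated, and cells that survive irradiation, such as those of the vessel wall, are of the host.

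Megakaryocytes are the large polyploid BM cells that shed platelets into the sinusoids, and platelets carry megakaryocyte RNA and protein with them. At a damaged vessel, von Willebrand factor bound to collagen captures platelets through the glycoprotein (GP) Ib-IX-V complex, GPVI then binds collagen itself, and the integrin alpha IIb beta 3 binds fibrinogen and links platelets to each other. Activated platelets release the chemokines of their alpha granules, of which platelet factor 4 and the products of Ppbp are the most abundant. Genes of this lineage are commonly controlled by GATA1 together with ETS family factors such as FLI1.

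Promoters are shown because GATA and ETS motifs are the classical ones of this lineage, and because their letters are independent of the array values. RefSeq (GRCm38.p6) gave a window of 250 bases before and 50 bases after the transcript start for 8 of the 10 genes, and none for Vwf and Itgb3 was used here. Below, the 120 bases before the start are given on the gene's strand, 5′ to 3′, with matches in capitals, on either strand. The motifs searched were the GATA motif AGATAA, its relatives that end in G (AGATAG), that begin with T (TGATAA) or that do both at once (TGATAG), and the ETS core GGAA. The promoters chosen are one with several GATA matches, one of the integrin, and those of the chemokine pair, whose genes are neighbors.
Gp5, chr16:30310782-30310901, minus strand: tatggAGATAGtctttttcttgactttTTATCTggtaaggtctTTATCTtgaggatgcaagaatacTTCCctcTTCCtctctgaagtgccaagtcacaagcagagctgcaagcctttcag
Itga2b, chr11:102469884-102470003, minus strand: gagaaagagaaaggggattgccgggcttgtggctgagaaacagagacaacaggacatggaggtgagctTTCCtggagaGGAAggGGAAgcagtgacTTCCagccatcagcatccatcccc
Pf4, chr5:90772315-90772434, plus strand: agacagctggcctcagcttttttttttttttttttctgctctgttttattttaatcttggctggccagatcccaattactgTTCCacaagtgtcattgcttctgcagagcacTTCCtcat
Ppbp, chr5:90768398-90768517, plus strand: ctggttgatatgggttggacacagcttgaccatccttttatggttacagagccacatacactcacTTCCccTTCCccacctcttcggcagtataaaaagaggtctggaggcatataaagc

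The Gp5 promoter held 3 GATA matches in these 120 bases, which began at positions -115, -93 and -77, counted back from the first transcribed base. The Itga2b, Pf4 and Ppbp promoters held none there and 4, 2 and 2 ETS cores. Over the whole 300-base windows, 5 of the 8 genes had a GATA match (Gp1ba, Gp1bb, Gp5, Gp6 and Pf4), beside 29.8% of all 32851 windows in the table. The ETS core was in 8 of 8 and in 96.0% of all windows, so it does not mark these genes out. A match describes letters in a window and is not evidence of binding.

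The values are log2 values that the authors had normalized with RMA, and a difference of 1 is a 2-fold difference. A log2 fold change below 0 is a lower mean in VD(-), and values per array are in the order of replicates 1, 2 and 3 for the single samples and of pools 1 and 2. Array medians lay between 4.74 and 4.80. The treatment field of the labels speaks of macrophages, but markers of several BM lineages were measured in every array: the mean of 8 neutrophil precursor genes lay between 11.38 and 11.73 and that of 9 erythroid genes between 9.51 and 9.79. Kdm5d, Eif2s3y and Uty, which lie on the Y chromosome, gave signal in 3 VD(-) arrays (replicate 1 and both pools), with array means of 5.31 to 6.80. The other 7 arrays, all VD(+) arrays among them, had means of 2.25 to 2.56, so group and Y-linked signal are partly confounded. The methods describe donor cells mixed from both sexes, yet those 7 arrays gave no Y-linked signal, and the reason was not tested. Leaving out the arrays with Y-linked signal keeps only single samples in VD(-) but single samples and pools in VD(+). Such fits cannot separate Y-linked signal from pooling.

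No gene of the list passed the test between VD(-) and VD(+) HSC recipient BM. By limma, with the Benjamini-Hochberg adjustment over all 35556 probe sets, adjusted p-values ran from 0.717 to 0.979, and 0 of 7 genes passed an adjusted p under 0.05, as against 0.0903% of all genes. At a nominal p under 0.05 the count was also 0 of 7, beside 2.95% of all genes lower and 4.05% higher in VD(-), and the methods' t-test called 0 as well. All 7 estimates were below 0, from -0.30 for Itgb3 to -0.03 for Pf4, with a median of -0.12 beside 0.001 over all genes, of which 49.7% were below 0. The 7 genes come from the same arrays, so their shared sign is not 7 separate observations, and it was not kept when VD(+) pool 2 was left out (4 of 7 below 0, median -0.01). No decrease was established here, and in bulk RNA fewer megakaryocytes and less of these RNAs per cell could not be told apart.

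**Figure D1:**
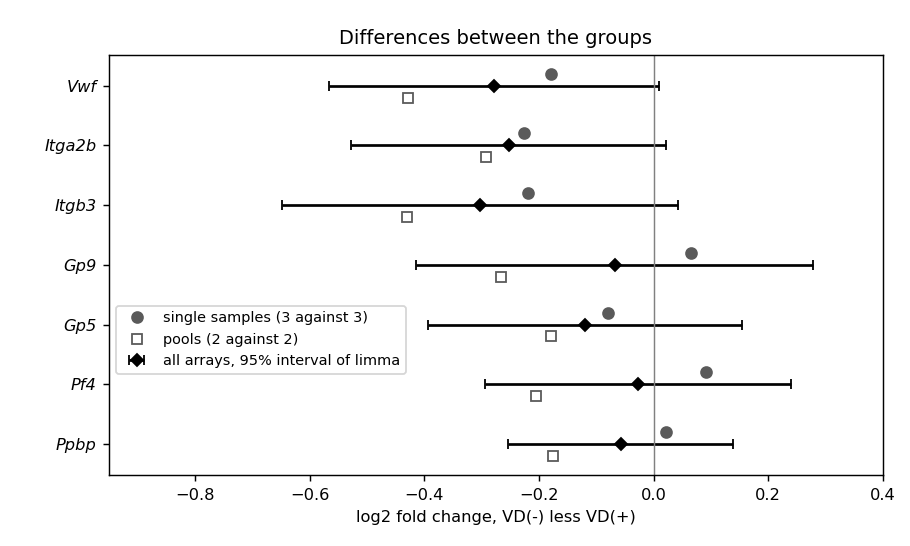
Log2 fold change of each gene, VD(-) less VD(+), on the x axis, with the 95% interval of limma over all 10 arrays (diamonds), and the same difference within the single samples (circles) and within the pools (squares). Every interval includes 0, and Gp9, Pf4 and Ppbp lie above 0 in the single samples and below 0 in the pools.

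Vwf encodes von Willebrand factor, which megakaryocytes store in alpha granules and endothelial cells in Weibel-Palade bodies. In VD(+) BM its log2 values were 7.24, 6.65 and 6.98 in the single samples and 6.90 and 7.16 in the pools. In VD(-) BM they were 6.62, 6.71 and 7.0 in the single samples and 6.43 and 6.77 in the pools. The groups overlapped, since VD(+) replicate 2 lay below 3 of the VD(-) arrays and VD(-) replicate 3 above 3 of the VD(+) arrays. The means were 6.71 ± 0.21 (SD, n = 5) in VD(-) and 6.98 ± 0.23 (SD, n = 5) in VD(+). VD(-) less VD(+) was -0.28 on the log2 scale (SE 0.13, 95% interval -0.57 to 0.01), with an adjusted p of 0.717 by limma. The two-sided exact permutation test of 5 arrays against 5 gave p = 0.0873. The difference is a ratio of 0.824, and the interval of the ratio runs from 0.675 to 1.01.

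Markers of vascular endothelium, the other source of Vwf, are given beside it. Of 15 such genes, among them Cdh5, Pecam1 and Kdr, 10 were above 0 and 5 below in VD(-), with a median log2 fold change of 0.08 and 0 past a nominal p under 0.05. The median was 0.007 in the single samples alone and -0.02 without the arrays with Y-linked signal. The array means of this list lay between 5.33 and 5.59 in VD(-) and between 5.26 and 5.47 in VD(+). Tie1, an endothelial receptor kinase, was at 5.18 ± 0.19 against 5.39 ± 0.09 (SD, n = 5 each), and Emcn, the sialomucin endomucin of sinusoids, at 5.39 ± 0.33 against 4.96 ± 0.46 (SD, n = 5 each), with adjusted p = 0.719 and 0.745 by limma. Without the arrays with Y-linked signal the log2 fold change of Emcn was 0.16 in place of 0.43. The share of endothelial RNA in the Vwf signal was not tested.

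Of the GPIb-IX-V complex, the receptor for von Willebrand factor, Gp9 and Gp5 had probe sets of their own. Gp9 encodes the GPIX subunit, which the complex needs to reach the platelet surface. Its log2 values in VD(+) were 8.01, 7.44 and 7.82 in the single samples and 7.73 and 8.41 in the pools, and in VD(-) they were 8.00, 7.78 and 7.68 and then 7.75 and 7.86. The VD(+) arrays spanned the whole VD(-) range, with VD(+) replicate 2 the lowest and VD(+) pool 2 the highest of all arrays. The difference was -0.07 (SE 0.16, 95% interval -0.41 to 0.28, adjusted p = 0.956 by limma), and the exact permutation test gave p = 0.714.

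Gp5 encodes GPV, the subunit that thrombin cleaves. In VD(+) it was at 8.61, 8.35 and 8.49 in the single samples and 8.24 and 8.96 in the pools, and in VD(-) at 8.47, 8.28 and 8.46 and then 8.34 and 8.50. Again the 5 VD(-) arrays lay inside the range of the VD(+) arrays. The log2 fold change was -0.12 (SE 0.12, 95% interval -0.39 to 0.16, adjusted p = 0.873 by limma), with p = 0.444 by the exact permutation test, and it was -0.01 without VD(+) pool 2.

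Gp1bb encodes the beta subunit of GPIb, and its only probe set also lists Septin5, a septin of the same locus, so the pair cannot be told apart. This probe set was at 7.47, 7.32 and 7.29 in the VD(+) single samples and 7.28 and 7.36 in the VD(+) pools. In VD(-) it was at 7.16, 7.38 and 7.17 and, in the pools, 7.02 and 7.11. Of the VD(-) arrays, 4 lay below every VD(+) array, and VD(-) replicate 2 lay among the VD(+) arrays. The log2 fold change was -0.18 (SE 0.08, nominal p = 0.0475, adjusted p = 0.698 by limma), with p = 0.0397 by the exact permutation test, and the difference did not hold after adjustment.

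The fibrinogen receptor is made of the products of Itga2b and Itgb3, and neither gene passed the test. Itga2b, the alpha IIb (CD41) chain found also on early progenitors, was at 7.42, 7.03 and 7.25 in the VD(+) single samples and 7.02 and 7.53 in the VD(+) pools. In VD(-) it was at 7.0, 6.99 and 7.03 in the single samples and 6.73 and 7.24 in the pools. All 5 VD(-) arrays lay below the VD(+) median, but VD(+) replicate 2 and VD(+) pool 1 lay within the VD(-) range. The mean was 7.0 ± 0.18 (SD, n = 5) in VD(-) against 7.25 ± 0.23 (SD, n = 5) in VD(+), and the difference was -0.25 on the log2 scale (SE 0.12, 95% interval -0.53 to 0.02, adjusted p = 0.734 by limma), with p = 0.0556 by the exact permutation test.

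Itgb3, the beta 3 (CD61) chain shared by alpha IIb and alpha V integrins, was at 8.44, 7.88 and 8.48 in the VD(+) single samples and 8.08 and 8.82 in the VD(+) pools. In VD(-) the values were closer together, at 7.95, 8.08 and 8.12 and, in the pools, 7.89 and 8.15. VD(+) replicate 2 was the lowest of all arrays and VD(+) pool 2 the highest, and the VD(-) arrays lay between. The log2 fold change was -0.30 (SE 0.16, 95% interval -0.65 to 0.04, adjusted p = 0.742 by limma), the largest of the 7 in size, with p = 0.143 by the exact permutation test. Its ratio of 0.810 had an interval from 0.638 to 1.03, and without VD(+) pool 2 the log2 fold change was -0.18.

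Osteoclasts also carry beta 3, paired with alpha V, and their genes are given beside it. Of 10 osteoclast genes, 7 were above 0 in VD(-), with a median log2 fold change of 0.10. At a nominal p under 0.05, 2 passed, both higher, beside 4.05% of all genes higher. Ocstamp, needed for the fusion of osteoclasts, was at 4.40 ± 0.19 against 3.86 ± 0.21 (SD, n = 5 each) in VD(+), with an adjusted p of 0.255 by limma. Every VD(-) array of Ocstamp lay above every VD(+) array, as in 1.09% of all genes. Its mean of 4.125 lay below the median probe-set mean of 4.74. The difference was 0.29 in the single samples and 0.91 in the pools. As an interaction this gave a nominal p of 0.00776 by limma, not past the adjusted threshold. Atp6v0d2, a subunit of the osteoclast proton pump, was at 5.90 ± 0.58 against 4.88 ± 0.75 (SD, n = 5 each). Neither passed the adjusted threshold. Without the arrays with Y-linked signal the log2 fold change of Atp6v0d2 was 0.44 in place of 1.02, that of Ocstamp 0.35 in place of 0.54, and the median of the list 0.04. The part of osteoclasts in the Itgb3 signal was not tested.

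**Figure D2:**
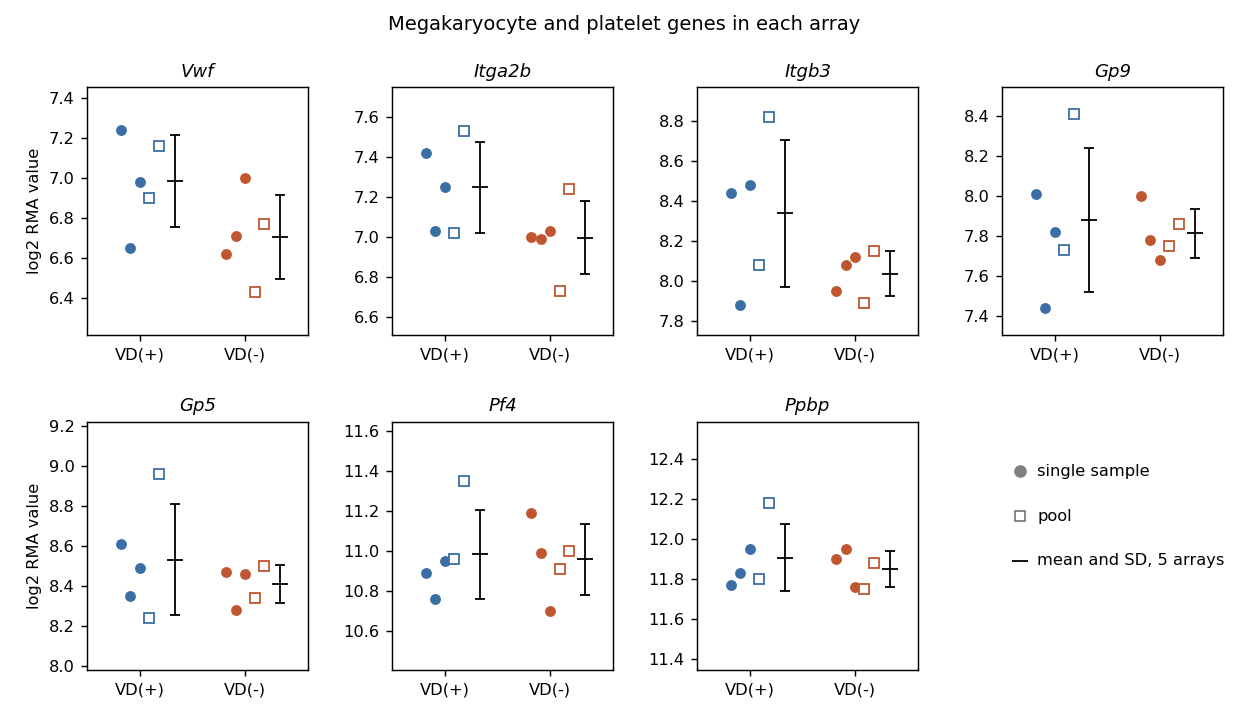
Log2 RMA value (y axis, each panel spanning the same number of log2 units) of the 7 genes in VD(+) and VD(-) HSC recipient BM. Filled circles are single samples, open squares are pools, and the bar gives the mean and SD of the 5 arrays; the groups overlap in all 7 panels.

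The granule chemokines had the smallest differences. Pf4, platelet factor 4 or CXCL4, was at 10.89, 10.76 and 10.95 in the VD(+) single samples and 10.96 and 11.35 in the VD(+) pools. In VD(-) it was at 11.19, 10.99 and 10.70 and, in the pools, 10.91 and 11. VD(-) replicates 1 and 2 and VD(-) pool 2 lay above 4 of the VD(+) arrays. The log2 fold change was -0.03 (SE 0.12, 95% interval -0.29 to 0.24, adjusted p = 0.979 by limma), with p = 0.841 by the exact permutation test.

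Ppbp encodes pro-platelet basic protein, which is cut to the neutrophil attractant CXCL7. Its values in VD(+) were 11.77, 11.83 and 11.95 in the single samples and 11.80 and 12.18 in the pools, and in VD(-) they were 11.90, 11.95 and 11.76 and then 11.75 and 11.88. Without VD(+) pool 2 the groups covered nearly the same range. The difference was -0.06 (SE 0.09, 95% interval -0.25 to 0.14, adjusted p = 0.925 by limma), with p = 0.595 by the exact permutation test. In ratios the intervals of Pf4 and Ppbp were 0.816 to 1.18 and 0.839 to 1.10.

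Single samples and pools were also taken apart. Within the single samples, 3 against 3, the log2 fold changes were -0.18 for Vwf, -0.23 for Itga2b, -0.22 for Itgb3 and -0.08 for Gp5, and 0.06, 0.09 and 0.02 for Gp9, Pf4 and Ppbp. Within the pools, 2 against 2, all 7 were below 0, from -0.43 for Vwf and Itgb3 to -0.18 for Gp5 and Ppbp. The median was -0.08 in the single samples and -0.27 in the pools. The difference between pools and single samples was tested as an interaction: 0 of 7 genes passed a nominal p under 0.05, beside 2.33% of all genes, and the lowest p was 0.241, with an adjusted p of 1.0 by limma.

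Array by array, VD(+) pool 2 carried the highest value of all 10 arrays for Itga2b, Itgb3, Gp9, Gp5, Pf4 and Ppbp, 6 of the 7 genes, and for Vwf it was second to VD(+) replicate 1. Over all genes this array was the highest in 6.13%. The mean deviation of the 7 genes from their own means was 0.44 in VD(+) pool 2 and 0.15 in VD(+) replicate 1, followed by replicate 3 (0.09), pool 1 (-0.08) and replicate 2 (-0.20) of the same group. In VD(-) it was -0.03, -0.08 and -0.08 in replicates 1, 2 and 3, -0.22 in pool 1 and 0.01 in pool 2. VD(-) pool 1 was the lowest of all arrays for Vwf, Itga2b and Ppbp, 3 of the 7 genes, and for 12.6% of all genes.

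**Figure D3:**
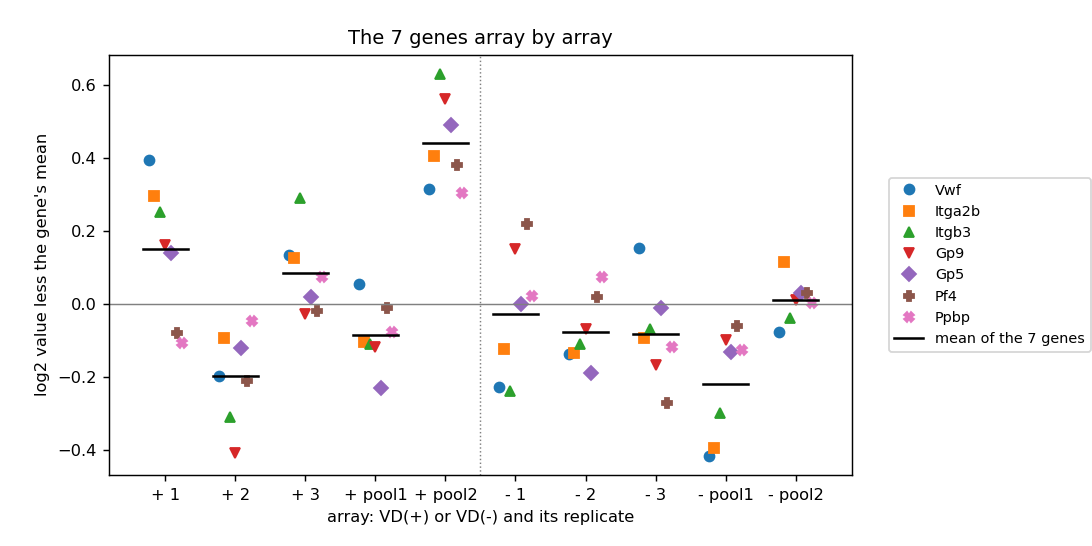
Log2 value of each of the 7 genes less its mean over the 10 arrays (y axis) in each array (x axis, VD(+) at left and VD(-) at right). Black lines are the mean of the 7 genes, which is highest in VD(+) pool 2 (0.44) and lowest in VD(-) pool 1 (-0.22).

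The spread within VD(+) was larger than within VD(-) for 7 of 7 genes, with a median ratio of the SDs of 1.84, whereas over all genes the VD(+) SD was the larger in 50.3% and the median ratio was 1.01. For Itgb3 the SDs were 0.37 and 0.11, and for Gp9 they were 0.36 and 0.12. Part of this came from 1 array: without VD(+) pool 2 the VD(+) SD was larger for 5 of 7 genes, beside 50.9% of all genes. The VD(+) SDs of Pf4 and Ppbp fell from 0.22 to 0.09 and from 0.17 to 0.08. The SDs of Itgb3 and Gp9 in VD(+) were then 0.29 and 0.24 (n = 4), still above those of VD(-). No test was made of these spreads.

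Pairs of the 7 genes were compared in their course over the arrays. Over all 10 arrays the 21 pairs had a median Pearson's r of 0.68, from 0.14 to 0.89, and 18 pairs were above 0.5. The highest was between the integrin chains Itga2b and Itgb3 (r = 0.89, Spearman's rho = 0.77), and Vwf followed both (r = 0.85 and 0.83). Pf4 followed Gp9 (r = 0.85) and Ppbp (r = 0.82) and was least like Vwf (r = 0.14, rho = -0.09). With the group means removed the median was 0.69. It was 0.84 within the 5 VD(+) arrays and 0.29 within the 5 VD(-) arrays, where 6 of 21 pairs were below 0 and the lowest was -0.53. Over the 9 arrays without VD(+) pool 2 the median was 0.43, r between Pf4 and Vwf was -0.27, and the integrin chains kept r = 0.83. These correlations describe 10 arrays that may share RNA between pools and single samples, so no p is given.

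The other genes of the lineage likewise did not pass the adjusted test. Of 103 genes in 6 lists of transcription factors, thrombopoietin signalling, receptors, granule contents, signalling and cytoskeleton, 95 were measured, 69 were below 0 and 26 above in VD(-), and the median log2 fold change was -0.06. At a nominal p under 0.05, 3 were lower (3.16%, beside 2.95% of all genes) and 1 was higher (1.05%, beside 4.05%), and 0 passed an adjusted p under 0.05 by limma, the lowest being 0.564. The share of genes lower at a nominal p was thus near the background. Over all genes 49.7% were below 0, and these 95 genes share arrays, so their signs are not separate observations. The means of the receptor, granule, signalling and cytoskeleton lists were highest in VD(+) pool 2. In each of the 6 lists the median was lower within the pools than within the single samples.

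**Figure D4:**
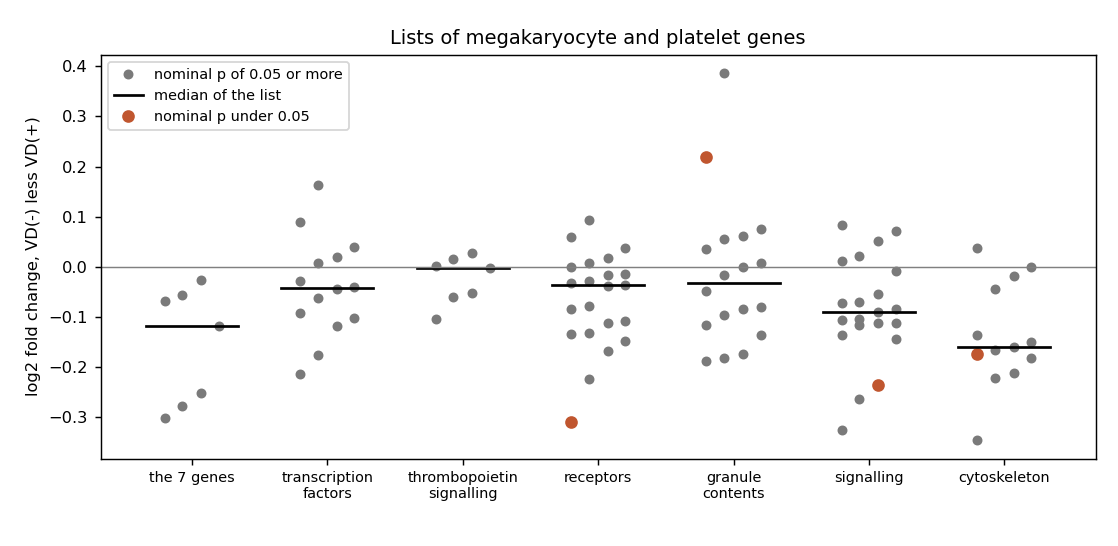
Log2 fold change, VD(-) less VD(+), of the 7 genes and of the measured genes of 6 other megakaryocyte and platelet lists. Each point is a gene, black lines are list medians, and the 4 colored points passed a nominal p under 0.05; the cytoskeleton list has the lowest median (-0.16).

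Among 14 transcription factors of the lineage, 9 were below 0 and 5 above, with a median of -0.04 and 0 past a nominal p under 0.05. Gata1, the factor without which megakaryocytes do not mature, had a log2 fold change of 0.09, and Fli1, an ETS factor of the lineage, -0.04. The smallest p-values belonged to Mef2c, a MADS box factor of megakaryocytes and B cells (-0.21, SE 0.10, adjusted p = 0.713), and Lyl1, a basic helix-loop-helix factor of stem cells and the lineage (0.16, SE 0.08, adjusted p = 0.741, both by limma).

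Of the genes of thrombopoietin signalling 7 of 10 were measured, and their median was -0.004. Sh2b3, the adaptor LNK that restrains cytokine signalling, was at -0.10, and the kinase gene Jak2 at -0.06. Neither passed a nominal p under 0.05.

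Of 22 platelet receptors 17 were below 0, with a median of -0.04 (-0.004 within the single samples and -0.18 within the pools). Mpig6b, an inhibitory receptor of megakaryocytes and platelets, was lower at a nominal p of 0.0399 (-0.31, SE 0.13, adjusted p = 0.683 by limma), with values from 6.99 to 7.29 in VD(-) and from 7.17 to 7.89 in VD(+). The ADP receptor gene P2ry12 was at -0.22. The arrays of this list behaved as those of the 7 genes: its mean was 7.22 in VD(+) pool 2 and 6.79 to 7.03 in the other 9 arrays.

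Granule genes divided, 11 below 0 and 7 above of 18, with a median of -0.03. That median was 0.06 within the single samples and -0.16 within the pools. Pdgfa, which encodes a chain of platelet-derived growth factor, was higher at a nominal p of 0.0131 (0.22, SE 0.07, adjusted p = 0.564 by limma), with every VD(-) array (5.13 to 5.31) above every VD(+) array (4.83 to 5.10), as in 1.09% of all genes.

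Of 21 platelet signalling genes 16 were below 0 (median -0.09). Fermt3, kindlin-3, which activates alpha IIb beta 3 from inside the cell, was lower at a nominal p of 0.0137 (-0.24, SE 0.08, adjusted p = 0.569 by limma), at 7.99 ± 0.12 against 8.23 ± 0.11 (SD, n = 5 each). Its groups overlapped, with VD(-) replicate 3 above VD(+) replicate 2. Leukocytes make kindlin-3 as well.

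The cytoskeleton list had 12 of 13 genes below 0 and the lowest median, -0.16. Flna, filamin A, which ties GPIb to actin and is made by most cells, was lower at a nominal p of 0.0376 (-0.17, SE 0.07, adjusted p = 0.679 by limma). Every VD(-) array of Flna (9.23 to 9.54) lay below every VD(+) array, as in 0.632% of all genes, while 0 of the 7 genes had groups that did not overlap. Rap1b of the platelet signalling list was likewise wholly lower (10.79 to 10.85 against 10.86 to 10.99), at -0.09 with an adjusted p of 0.785 by limma. Tubb1, the tubulin of the platelet marginal band, was at -0.18, Myl9, the myosin light chain of platelets, at -0.35 and Myh9, the nonmuscle myosin heavy chain of platelets, at -0.22, and none of these 3 passed a nominal p under 0.05. Gata1, Fli1, P2ry12, Rap1b, Tubb1, Myl9 and Myh9 were chosen for naming after their values were seen. Without the arrays with Y-linked signal the median of the cytoskeleton list was -0.04.

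The genes most like the 7 in their course over the 10 arrays were found among 17017 named genes by Pearson's r with the mean standardised value of the 7. Leaving the 7 themselves aside, they were Pls1 (r = 0.96), Ubash3b (0.94), Itga2 (0.93), Fam124a (0.93), Pde5a (0.92), Cavin2 (0.92), Tpm4 (0.92) and Alox12 (0.91). Itga2 encodes the alpha 2 chain of the platelet collagen receptor, Alox12 the platelet 12-lipoxygenase, Tpm4 a tropomyosin and Pde5a the cGMP phosphodiesterase. Of the 8, 4 (Itga2, Cavin2, Tpm4 and Alox12) were in the lists above. Without VD(+) pool 2 their r was between 0.78 and 0.91. Their log2 fold changes lay between -0.29 for Ubash3b and -0.10 for Fam124a, with adjusted p of 0.732 or more by limma.

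Stem and progenitor cells also express Itga2b and, in part, Vwf. Of 11 genes of such cells 6 were below 0 and 5 above in VD(-), with a median of -0.01 and 0 past a nominal p under 0.05. Flt3, the receptor of lymphoid-primed progenitors, was at 6.38 ± 0.13 against 6.70 ± 0.34, and Hlf, a stem cell transcription factor, at 4.93 ± 0.12 against 5.07 ± 0.16 (SD, n = 5 each). Their adjusted p-values were 0.722 and 0.796 by limma.

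Lastly, the 2 VD(-) arrays without Y-linked signal were set against the 5 VD(+) arrays. Those 2 arrays are single samples, so the VD(-) pools were left out while the VD(+) pools stayed, VD(+) pool 2 among them. The log2 fold changes were then -0.13 for Vwf, -0.24 for Itga2b, -0.24 for Itgb3, -0.15 for Gp9, -0.16 for Gp5, -0.14 for Pf4 and -0.05 for Ppbp, with a median of -0.15 and adjusted p of 0.912 or more by limma. The estimates for Vwf, Itga2b, Itgb3 and Ppbp were smaller in size without the arrays with Y-linked signal, and those for Gp9, Gp5 and Pf4 were larger. Since the VD(-) pools were left out as well, these shifts cannot be assigned to Y-linked signal. The probe set of Gp1bb and Septin5 was at -0.07 in place of -0.18.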

How the data were processed

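The submitters' processing notes name RMA and Partek, and the table as deposited is on the log2 scale, with the background corrected, the array distributions made alike and the probes of a probe set summarised. No value here was normalized further. For filters and the genome build the sources used here give nothing. Precision is limited by how many arrays there are. All sample columns were used (0 left out).

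Gene names came from the array's annotation (21789 of 35556 probe sets with 1 gene, 1621 with several, 12146 with none), and the probe set with the highest mean was taken per gene. VD(-) was compared with VD(+) by limma 3.58.1 in R 4.3.3 over all probe sets, two-sided, with Benjamini-Hochberg adjustment, and each listed gene by an exact permutation test of 5 arrays against 5, whose smallest p is 0.00794. The fit was tested on simulated data. The genes and lists were chosen with earlier results of these data known. Named are the listed genes, of each other list those past a nominal p under 0.05 (up to 4, or the 2 of smallest p), the 8 of highest likeness and those said to be chosen later. Alternatives are given in the closing section. Promoters came from RefSeq (GRCm38.p6).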

Additional observations from a re-analysis of the deposited data

Results flagged for a closer look

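None of the 7 genes had an array set far apart from the others of its group in either group. Among the other genes named and the list means, 6 single arrays stood apart by Dixon's ratio of the gap to the range (over 0.71 for 5 arrays), out of 116 groups examined, and chance gives about 1 in 20. Flna was at 9.23 in VD(-) pool 1, with the other VD(-) arrays between 9.46 and 9.54. Ubash3b was at 6.49 in the same array, with the others between 6.91 and 6.98. The mean of the 18 platelet granule genes was also lowest there, at 7.16, with the others between 7.29 and 7.32. In VD(+) replicate 1 the mean of the 7 genes of thrombopoietin signalling was 7.28, with the others between 7.18 and 7.21. The macrophage gene Cd68 was at 8.46 in that array, with the others between 8.72 and 8.75, and the mean of 5 B cell genes was 7.58, with the others between 8.02 and 8.12.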

How the results depend on the processing

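Over the alternatives the lowest adjusted p of the 7 genes by limma or the methods' t-test was 0.357. With the single samples alone Gp9 was at 0.065, Pf4 at 0.091, Ppbp at 0.021 and Itga2 at 0.021, and with the pools alone Jak2 was at 0.071. With a covariate made of the Y-linked genes minus Xist, Fli1 was at 0.0047. When each array was left out in turn, Itgb3 ran from -0.42 to -0.18 and Gp5 from -0.19 to -0.01, both nearest to 0 without VD(+) pool 2, and Gp9 ran from -0.18 to 0.065, Pf4 from -0.085 to 0.065, Ppbp from -0.092 to 0.010, Itga2 from -0.18 to 0.020 and Fli1 from -0.11 to 0.0032, with the values above 0 without VD(+) pool 2, for Pf4 also without VD(-) replicate 3, and for Fli1 without VD(+) replicate 2. The cause was not tested.

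The count of the 7 genes past a nominal p under 0.05 was 0, and it became 1 with cyclic loess, with pools weighted as 3 arrays and with probe sets of 1 gene alone (Vwf in each), 1 with the shared Gp1bb probe set, and 2 with a gene's probe sets averaged (Vwf and Itga2b). The same replicate numbers did not pair the samples (correlation of deviations from -0.05 to 0.06), and with the replicate number as a block the count was 1 (Itga2b), with 6 other megakaryocyte and platelet genes past a nominal p in place of 4. Leaving out 1 array gave 0 to 3, the highest without VD(+) replicate 2 (Vwf, Itga2b and Itgb3). Over all genes, 1403 passed a nominal p under 0.05 without that array, in place of 1396. For the 95 other megakaryocyte and platelet genes the 4 became 0 with single samples alone, 1 with pools alone and 12 with pools weighted as 3 arrays. It became 1 without the arrays with Y-linked signal, and ran from 2 to 8 when 1 array was left out. Over all 19938 genes the count at a nominal p under 0.05 was 1396. With cyclic loess it was 1387, with probe sets of 1 gene alone 1592, with a gene's probe sets averaged 1586 and with the replicate block 1232. The count over all genes became 691 with single samples alone and 639 with pools alone. With pools weighted as 3 arrays it was 2077, and without the arrays with Y-linked signal 1141. It ran from 1124 to 1500 when 1 array was left out. The median of the 7 genes ran from -0.19 to -0.01 over the arrays left out, the latter without VD(+) pool 2.

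Over all genes, 18 passed an adjusted p under 0.05 by limma. The methods' t-test gave 5, the covariate 10, the arrays without Y-linked signal 1, the replicate block 1 and averaged probe sets 29. The single samples alone and the pools alone gave 0, with 691 and 639 at a nominal p under 0.05 in place of 1396. Leaving out 1 array gave 2 to 18.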

Other observations

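Other lineages of the BM were measured in the same arrays. Of 10 macrophage genes 10 were above 0 in VD(-) (median log2 fold change 0.23), with Vsig4, a complement receptor of resident macrophages, at 5.79 ± 0.14 against 4.95 ± 0.70, and Cd68, a lysosomal glycoprotein, at 8.95 ± 0.09 against 8.68 ± 0.13 (SD, n = 5 each). Both passed a nominal p under 0.05, 2 of the 10 genes beside 4.05% of all genes higher, with adjusted p = 0.560 and 0.482 by limma. The median of the list was 0.05 without the arrays with Y-linked signal. Among 9 erythroid genes 5 were below 0 and 4 above, with a median of -0.005 and log2 fold changes from -0.14 to 0.25. The highest was that of Klf1, an erythroid transcription factor, at 8.17 ± 0.19 against 7.92 ± 0.14 (SD, n = 5 each). For Klf1 the exact permutation test of 5 arrays against 5 gave p = 0.0476. The difference did not hold after adjustment by limma (adjusted p = 0.673). Of 9 basophil and mast cell genes 5 were below 0 and 4 above, with a median of -0.0002, and among them Ms4a2, the beta chain of the IgE receptor, was at 5.27 ± 0.15 against 5.07 ± 0.10 (SD, n = 5 each, adjusted p = 0.676 by limma). Of 5 B cell genes 3 were below 0 and 2 above, with a median log2 fold change of -0.23. Without the arrays with Y-linked signal that median was -0.58. The mean of the list was 7.97 in VD(-) and 7.98 in VD(+). Its array means ran from 7.18 to 8.78 in VD(-) and from 7.58 to 8.12 in VD(+). Ms4a1, the B cell antigen CD20, was at 7.56 ± 0.21 against 8.01 ± 0.25 (SD, n = 5 each, adjusted p = 0.521 by limma). The pre-B cell genes Vpreb1 and Igll1 were those above 0, at 0.41 and 0.54, with VD(-) SDs of 1.5 and 1.43. Within the single samples their differences were 0.055 and 0.095. Of 8 neutrophil precursor genes 4 were above 0, with Prtn3, a granule protease, at 0.17 and Ngp, a secondary granule protein, at -0.08 on the log2 scale, neither past a nominal p under 0.05.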
